A study of Mus musculus with 18 samples.

Results

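The comparison asks whether the response of splenic monocytes to intravenous immunoglobulin (IVIg, immunoglobulin G pooled from many human donors) depended on Dectin-1. It uses 12 of the 18 libraries of the series, each from monocytes sorted from the spleen of 1 mouse on day 3: 3 from C57BL/6 wild-type (WT) mice given phosphate-buffered saline (PBS), 3 from WT mice given IVIg, 3 from Dectin-1 knockout mice given PBS and 3 from Dectin-1 knockout mice given IVIg. For each gene the quantity of interest was the IVIg minus PBS difference in the knockout minus the IVIg minus PBS difference in WT, on the log2 scale, called the interaction below. The spread between replicates was estimated from all 18 libraries, so it also rests on 6 from FcgRIIb knockout mice (3 given PBS and 3 given IVIg), of which 1 held only 719494 counts. A positive interaction means that IVIg stood higher against PBS in the knockout than in WT, and a negative one that it stood lower. The labels name no cell type to which the deletion is limited, and the strain background of the knockout, the IVIg dose and the age of the mice are not given in the sources used here.

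Dectin-1, encoded by Clec7a, is a C-type lectin of myeloid cells that binds fungal beta-glucan and signals through the kinase Syk and the adaptor CARD9 to NF-kB. It has also been linked to the inhibitory Fc receptor FcgRIIb in responses to galactosylated IgG. Mouse monocytes form a classical population (Ly6C high, CCR2 positive), which enters inflamed tissue, and a non-classical population (Ly6C low, dependent on the nuclear receptor Nr4a1), which patrols the vessel wall, carries the activating receptor FcgRIV and responds to IgG complexes.

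The 12 libraries held 16996494 to 48958909 counts, so that 3 counts corresponded to 0.0615 to 0.186 CPM (counts scaled to the size of each library, with TMM factors). Monocyte genes were abundant in each: Cx3cr1 stood at 834 to 1230 CPM and Ccr2 at 853 to 2610 CPM. Libraries differed in ways the groups did not explain. Across 5049 abundant genes, the rank correlation (Spearman) of a library's deviation from the mean with gene length lay between -0.50 and 0.58, and within each of the WT IVIg, Dectin-1 knockout PBS and Dectin-1 knockout IVIg groups it took both signs. The closest pair of the 12 (Spearman 0.988) joined a PBS and an IVIg library, WT PBS replicate 3 and WT IVIg replicate 1. The design text gives independent mice, but some library titles share a code whose meaning is not stated. Replicates 2 and 3 of Dectin-1 knockout PBS share such a code, as do replicates 1 and 2 of FcgRIIb knockout PBS. Another code crosses genotypes: it occurs in WT IVIg replicate 3 and in a PBS library of the FcgRIIb knockout.

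No gene passed the test of the interaction. Of 17040 genes tested with edgeR, 0 had a Benjamini-Hochberg adjusted p under 0.05 (0%), the lowest adjusted p being 0.998. At an unadjusted p under 0.05 there were 306 genes with a positive interaction (1.80%) and 333 with a negative one (1.95%), 639 in all (3.75%), where 852 would be so by chance alone. That number depended on the fit and on single libraries: it was 2666 with limma voom and 1817 without WT IVIg replicate 1. The effect of IVIg within each genotype was also small against the spread: 1 gene was called in WT (0.00587%), the predicted gene Gm9574, which fell from a mean of 4.49 to 0.124 CPM (adjusted p = 0.0187) and whose call was lost in several alternatives, and 0 were called in the Dectin-1 knockout (0%), where the lowest adjusted p was 0.234. At an unadjusted p under 0.05 there were 429 genes in WT and 556 in the knockout.

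The number of mice limits what could be seen. For the 2089 genes over 100 CPM the 95% interval of the interaction reached a median of 0.74 log2 units to either side, a 1.67-fold difference in response. For the 6576 genes of 10 to 100 CPM it reached 0.80 (1.75-fold), for the 4082 genes of 1 to 10 CPM 1.36 (2.57-fold), and for the 4293 genes under 1 CPM 3.37 (10.4-fold). These intervals are not adjusted for the 17040 genes tested, so they are not the limits of the test. Smaller differences between genotypes were not detectable gene by gene, and larger ones were not called either. All interaction values below are therefore descriptions, and unadjusted p-values only rank the genes.

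Clec7a itself (ENSMUSG00000079293, chromosome 6, 129438554 to 129449742, GRCm39) separated the genotypes as labelled. It stood at 821, 522 and 360 CPM in WT PBS libraries, and at 483, 766 and 739 CPM in WT IVIg libraries. In the knockout it stood at 2.24, 2.36 and 4.05 CPM with PBS and at 0.247, 0.860 and 1.55 CPM with IVIg. The WT groups overlapped, with a log2 difference of 0.22 between IVIg and PBS. The interaction of -1.66 ± 0.61 (SE) rests on the few reads left in the knockout and is no measure of a Dectin-1 response.

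Of the 27 tested genes of the Dectin-1 and CARD9 pathway, 16 had a positive and 11 a negative interaction, with a median of 0.09 against 0.00 over all genes. Besides Clec7a, 0 of them were under an unadjusted p of 0.05. Syk, the kinase that carries the signal from Dectin-1 and from activating Fc receptors, came closest. It stood at 480, 628 and 960 CPM in WT PBS, 724, 295 and 407 in WT IVIg, 419, 478 and 390 in knockout PBS, and 403, 626 and 799 in knockout IVIg. PBS and IVIg libraries overlapped in both genotypes, and the interaction was 1.04 ± 0.54 with a 95% interval from -0.08 to 2.17. Card9, the adaptor downstream of Syk, gave 0.30 ± 0.49 (interval -0.73 to 1.33). Of the partners of CARD9, Malt1 stood at -0.21 ± 0.35 and Bcl10 at -0.13 ± 0.31, and the inflammasome gene Nlrp3 at 0.29 ± 0.38.

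Fc receptors for IgG bind the IgG of IVIg directly. The list used here also holds genes that do not, such as the IgM receptor Fcmr and the signalling chain Fcer1g. Of the 12 tested genes of this list 6 had a positive and 6 a negative interaction (median 0.05, and -0.91 without Dectin-1 knockout IVIg replicates 1 and 2). Of these, 2 lay under an unadjusted p of 0.05, both negative, where 1.95% of all genes did in that direction. Fcgr2b, the inhibitory receptor, stood between 208 and 318 CPM in all 12 libraries and gave an interaction of 0.23 (interval -0.48 to 0.94). Among the activating receptors, Fcgr1 gave 0.37 (interval -0.37 to 1.12) and Fcgr3 -0.03 (interval -0.70 to 0.64). Their shared signalling chain Fcer1g gave -0.59 (interval -1.54 to 0.35).

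Fcgr4, the activating receptor of non-classical monocytes, gave the lowest interaction of the Fc receptors. It stood at 74.1, 123 and 94.8 CPM in WT PBS and at 78.6, 314 and 127 CPM in WT IVIg, where replicate 2 stood apart. In the knockout it stood at 187, 192 and 190 CPM with PBS and at 107, 154 and 119 CPM with IVIg, so that all IVIg libraries lay under all PBS libraries. The interaction was -1.41 ± 0.54 and -0.66 without WT IVIg replicate 2. Fcgrt, the neonatal Fc receptor that protects IgG from breakdown, gave -0.83 ± 0.34. It stood at 70.2 to 98.3 CPM in WT PBS, 85.3 to 169 in WT IVIg, 117 to 137 in knockout PBS and 99.0 to 122 in knockout IVIg.

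Of 31 tested genes of Fc receptor signalling 21 were positive, with a median of 0.28 that was 0.09 without Dectin-1 knockout IVIg replicate 3. Under an unadjusted p of 0.05 were Dok2, an adaptor that restrains signalling, with an interaction of 1.17 ± 0.45, and the ubiquitin ligase Cblb with 1.13 ± 0.51, which was 0.62 without Dectin-1 knockout IVIg replicate 2. Both were positive, where 1.80% of all genes lay under that p in this direction. Dok2 stood at 9.83 to 13.6 CPM in WT PBS, 6.68 to 8.50 in WT IVIg, 4.43 to 10.3 in knockout PBS and 9.51 to 12.6 in knockout IVIg. Its WT groups did not overlap and its knockout groups did.

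The non-classical monocyte markers mostly had a negative interaction. Of 28 tested genes, 25 had a negative interaction and 13 of them lay under an unadjusted p of 0.05, where 1.95% of all tested genes did in this direction, and 0 lay under it in the positive direction. None of the 28 was called. The median interaction was -0.81, made of a median of 0.64 for IVIg minus PBS in WT (25 of 28 above 0) and -0.16 in the knockout (5 of 28 above 0). That such markers stand higher with IVIg in WT was known from these data when the list was chosen, so its count is not independent evidence.

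Library by library, the median of these markers was 6.53, 7.18 and 7.06 log2 CPM in WT PBS and 7.56, 8.18 and 7.73 in WT IVIg. In the knockout it was 7.62, 7.96 and 8.02 with PBS and 7.43, 7.48 and 7.38 with IVIg. WT IVIg thus lay above WT PBS in every library, and knockout IVIg under knockout PBS in every library. The knockout PBS libraries already lay above the WT PBS libraries, with a median genotype difference over the 28 markers of 0.37 in PBS and -0.34 with IVIg. Fewer non-classical cells in a sort and less RNA of these genes per cell cannot be told apart in such bulk libraries.

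**Figure D1:**
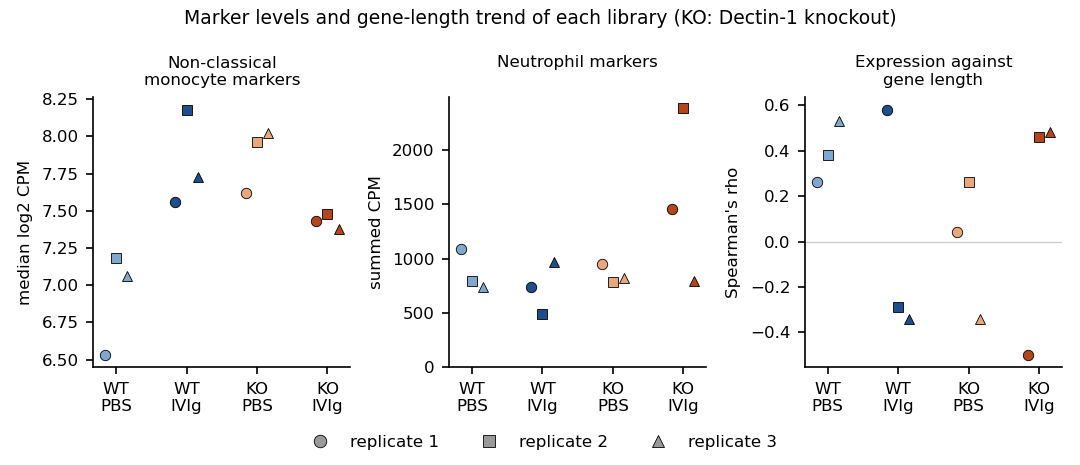
The left panel plots the median log2 CPM of the 28 non-classical monocyte markers, the middle panel the summed CPM of the 19 tested neutrophil markers and the right panel Spearman's rho of expression with gene length over 5049 abundant genes, with 1 point per library. The lowest 3 medians of the left panel are the WT PBS libraries, 2 Dectin-1 knockout IVIg libraries stand out in the middle panel at 1460 and 2390 CPM, and the right panel shows both signs within 3 of the 4 groups.

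Pparg, a nuclear receptor of lipid metabolism, was the marker ranked first. It stood at 27.5, 32.4 and 22.4 CPM in WT PBS and at 46.1, 68.2 and 60.8 CPM in WT IVIg, with no overlap. In the knockout it stood at 33.1, 56.3 and 51.4 CPM with PBS and at 41.3, 36.3 and 36.1 CPM with IVIg, and these groups overlapped. The interaction was -1.41 ± 0.35 (interval -2.13 to -0.68), with an adjusted edgeR p of 0.998.

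Cd300e, an activating receptor of the CD300 family found on non-classical monocytes, showed the same order. It stood at 75.8, 152 and 137 CPM in WT PBS, 237, 339 and 228 in WT IVIg, 189, 292 and 289 in knockout PBS, and 172, 259 and 176 in knockout IVIg. Its WT groups did not overlap, its knockout groups did, and the interaction was -1.48 ± 0.38. Its relative Cd300ld had an interaction of -0.98 ± 0.29. It stood at 95, 126 and 132 CPM in WT PBS, 183, 210 and 142 in WT IVIg, 186, 188 and 222 in knockout PBS, and 159, 157 and 143 in knockout IVIg. Cd300ld was the 1 marker of the 28 whose groups were separate in both genotypes and in opposite order. Of all 17040 genes 38 (0.223%) had that order, a share that also arises by chance.

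Eno3, an enolase of glycolysis, stood at 89.3, 111 and 93.8 CPM in WT PBS and 178, 298 and 216 in WT IVIg. In the knockout it stood at 206, 239 and 282 CPM with PBS and 209, 152 and 159 with IVIg, and its interaction was -1.72 ± 0.49. Cd36, a scavenger receptor for lipids, and Ear2, a ribonuclease of the eosinophil-associated family, had interactions of -2.13 ± 0.60 and -1.88 ± 0.53. For both, the knockout groups were separate, with IVIg under PBS, and WT IVIg replicate 2 held the most of the 12 libraries (555 and 660 CPM). Without that library the interaction of Cd36 was -1.39. Ear2 belongs to a family of near-identical genes, so its counts are uncertain. Cd9, a tetraspanin, gave -1.49 ± 0.45, and -0.85 without WT IVIg replicate 2, and lies within 10 Mb of Clec7a.

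**Figure D2:**
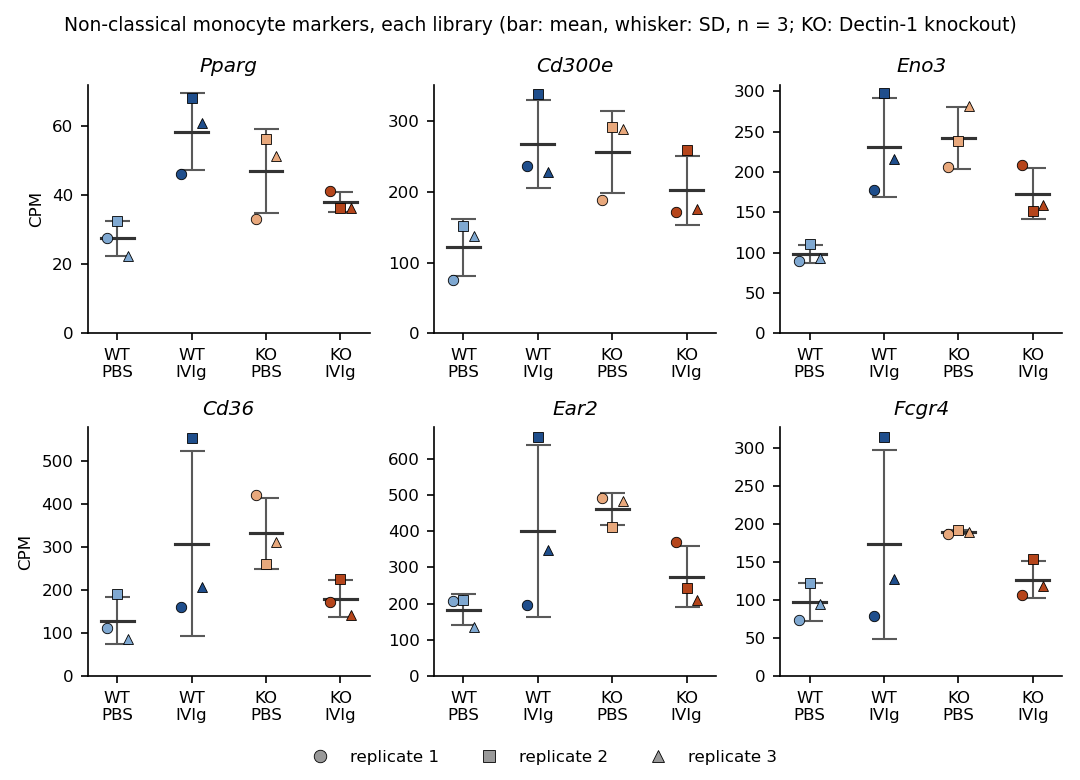
CPM of 6 non-classical monocyte markers in each of the 12 libraries, with the mean as a bar and the SD of 3 libraries as whiskers. For Pparg, Cd300e and Eno3 all WT IVIg points lie above all WT PBS points, whereas for Cd36, Ear2 and Fcgr4 1 WT IVIg library (replicate 2) carries much of the WT difference.

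The remaining markers under an unadjusted p of 0.05 had smaller values. Spn, the sialoglycoprotein CD43 used to sort non-classical monocytes, gave -0.77 ± 0.35, the adhesion receptor Adgre4 -0.89 ± 0.41, the receptor Treml4 -0.82 ± 0.31, the inhibitory collagen receptor Lair1 -0.90 ± 0.40 and the survival gene Bcl2 -1.46 ± 0.60. Lair1 stood at 261 CPM in WT IVIg replicate 2, and its interaction was -0.35 without that library. All WT IVIg libraries lay above all WT PBS libraries for Spn (980 to 1240 against 633 to 858 CPM), Adgre4 (742 to 1320 against 510 to 700) and Treml4 (316 to 501 against 168 to 282). The share of all genes with such separate WT groups was not counted, so this order in WT is a description only.

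Several genes that define the non-classical population had intervals that include 0. Nr4a1, on which these cells depend, gave an interaction of -0.10 (interval -0.97 to 0.78), and the chemokine receptor Cx3cr1 -0.09 (interval -0.71 to 0.53). The integrin chain Itgal stood at -0.06 ± 0.39, the peptidase gene Ace at -0.57 ± 0.51 and Cebpb, a transcription factor needed for these cells, at -0.33 ± 0.37.

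The median of -0.81 kept its sign in all 24 other fits, between -1.0 and -0.52, and was -0.79 once the gene-length trend of each library was removed. Without WT IVIg replicate 2 it was -0.52, with 7 markers under an unadjusted p of 0.05. Without Dectin-1 knockout IVIg replicates 1 and 2, whose levels of neutrophil transcripts are given below, 8 markers did so. That fit leaves 1 library in the group, which is assumed to vary like the others.

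Of 26 classical monocyte markers 15 had a positive and 11 a negative interaction, with a median of 0.12 (-0.13 without Dectin-1 knockout IVIg replicates 1 and 2). Of these markers 2 lay under an unadjusted p of 0.05, both positive, where 1.80% of all genes did in that direction. Ly6c2 and Ccr2, which define the classical population, stood at -0.06 (interval -0.97 to 0.86) and -0.06 (interval -1.08 to 0.96). Ccr1, a chemokine receptor, gave 2.30 ± 0.78. It stood at 32.7, 18.6 and 125 CPM in WT PBS, 12.7, 7.11 and 15.3 in WT IVIg, 42.3, 19.5 and 21.1 in knockout PBS, and 26.5, 27.1 and 27.2 in knockout IVIg, and its interaction was 1.09 without WT PBS replicate 3. Cd14, the co-receptor for lipopolysaccharide, gave 1.34 ± 0.48. It stood at 33.7, 39.4 and 36.3 CPM in WT PBS, 16, 14.9 and 27.8 in WT IVIg, 28.3, 23.4 and 26.3 in knockout PBS, and 30.9, 36.3 and 38.3 in knockout IVIg. The groups of Cd14 were separate in both genotypes, with IVIg under PBS in WT and over PBS in the knockout.

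**Figure D3:**
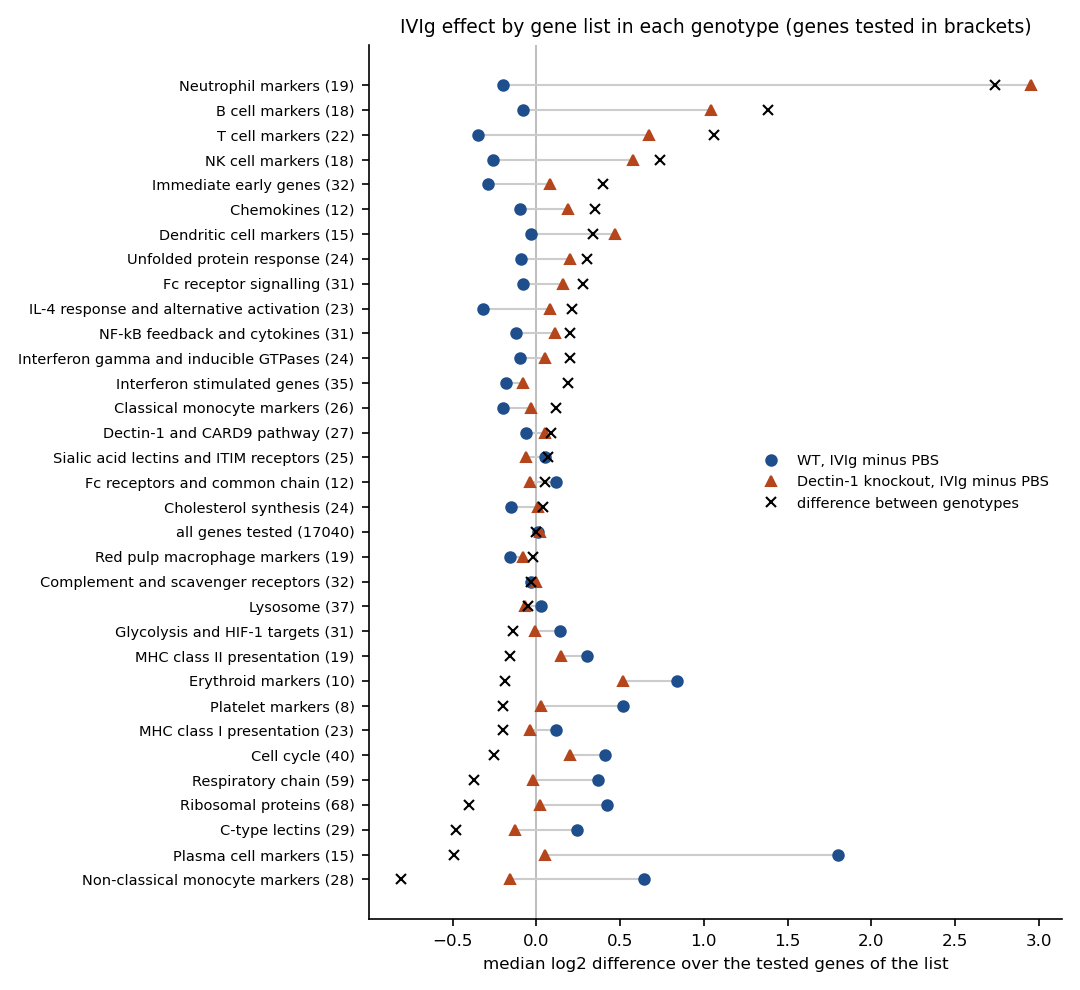
Median log2 difference of each gene list (genes tested in brackets) for IVIg minus PBS in WT, the same in the Dectin-1 knockout, and the knockout value minus the WT value taken gene by gene. Non-classical monocyte markers are at the low end (-0.81) and neutrophil markers at the high end (2.74), while the median of all 17040 genes is 0.00.

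Immediate early genes, which are transcribed within minutes of receptor signalling or of cell handling, included the gene ranked first of all 17040. Of 32 genes 21 were positive, 5 lay under an unadjusted p of 0.05, all positive, where 1.80% of all genes did, and the median was 0.40. With the legacy fit of edgeR and with DESeq2, 3 members did so. Egr1, a zinc-finger transcription factor, stood at 2.21, 1.74 and 6.02 CPM in WT PBS and 1.03, 0.143 and 0.333 in WT IVIg. In the knockout it stood at 0.424, 0.292 and 0.521 CPM with PBS and 2.97, 1.79 and 2.50 with IVIg. The groups were separate in both genotypes and in opposite order, with an interaction of 5.28 ± 1.05 that lay between 4.52 and 6.32 in the other fits. Its adjusted edgeR p was 0.998, and all its levels are under 10 CPM.

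The related factors Egr3 and Egr2 gave 5.37 ± 1.63 and 1.80 ± 0.82, at levels under 3.5 CPM. Maff, a small bZIP factor, gave 2.30 ± 0.77 and the orphan receptor Nr4a3 3.31 ± 1.49. The abundant members of the list stood closer to 0: Fos at 0.22 ± 0.51, Junb at 0.52 ± 0.35, Ier2 at 0.34 ± 0.35, Zfp36 at 0.24 ± 0.32 and Atf3 at 0.21 ± 0.33. The 5 members with an unadjusted p under 0.05 were those of few CPM. The median of the list was 0.25 without WT PBS replicate 3, and 3 members lay under that p without WT IVIg replicate 3, Dectin-1 knockout PBS replicate 2 or Dectin-1 knockout PBS replicate 3.

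**Figure D4:**
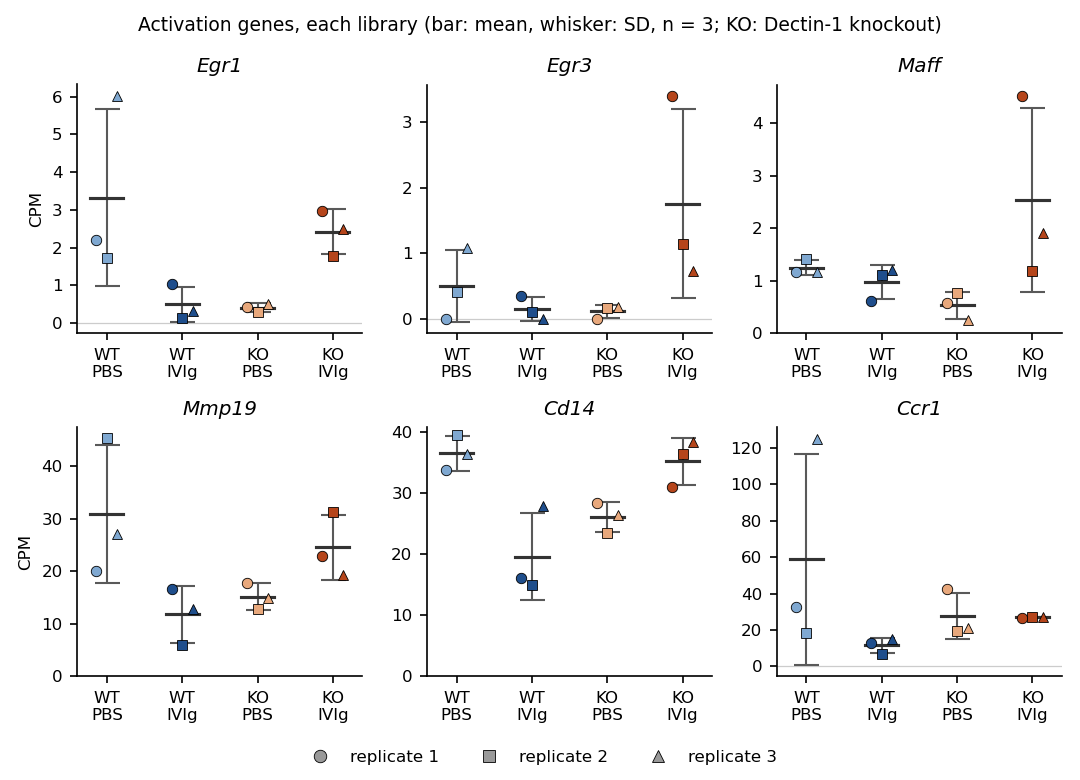
CPM of 3 immediate early genes (Egr1, Egr3, Maff), of the protease gene Mmp19 and of the classical monocyte genes Cd14 and Ccr1 in each of the 12 libraries, with the mean as a bar and the SD of 3 libraries as whiskers. For Egr1, Mmp19 and Cd14 the WT IVIg points lie under the WT PBS points and the Dectin-1 knockout IVIg points over the knockout PBS points, while the high value of Ccr1 is 1 WT PBS library (replicate 3).

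Inflammatory groups had small medians. Of 31 tested genes of NF-kB feedback and cytokines 22 were positive, with a median of 0.20 that was 0.03 without WT PBS replicate 3. Of these genes 3 positive and 1 negative lay under an unadjusted p of 0.05, where 1.80% and 1.95% of all genes did. Bcl3, an NF-kB cofactor, gave 1.61 ± 0.58, and 0.71 without WT PBS replicate 3 and WT IVIg replicate 1, with 158 CPM in WT PBS replicate 3 and 21.1 to 57.8 CPM in the other 11 libraries. Il1rn, the interleukin-1 receptor antagonist, gave 0.96 ± 0.37 and stood at 13 to 18.5 CPM in knockout PBS, all under the 22.5 to 34.7 CPM of knockout IVIg. The macrophage growth factor Csf1 gave 0.97 ± 0.45 and the phosphodiesterase Pde4b -0.61 ± 0.26.

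Of 35 interferon stimulated genes 25 were positive with a median of 0.19. Oas3, a sensor of double-stranded RNA, was the 1 member under an unadjusted p of 0.05, at 0.69 ± 0.32, where 1.80% of all genes were in that direction. In 24 genes of the interferon gamma response, 12 chemokines, 19 genes of MHC class II presentation and 23 of MHC class I presentation 0 lay under that p, and the medians were 0.20, 0.35, -0.16 and -0.20. These medians moved when libraries were left out. Without Dectin-1 knockout IVIg replicates 1 and 2 that of the interferon stimulated genes was -0.01 and that of the interferon gamma response -0.07. Without WT PBS replicate 1 that of the chemokines was 0.07, and without WT IVIg replicate 2 that of MHC class II was 0.37 and that of MHC class I -0.08. Of 23 genes of the IL-4 response and alternative activation, 15 were positive (median 0.21, and 0.04 without WT PBS replicate 1). Among sialic acid lectins and other inhibitory receptors, Cd33 gave 0.95 ± 0.38, Lair1 the -0.90 given above and Pilra -0.87 ± 0.40. Cd33 stood at 65.6 to 83.8 CPM in WT PBS and 34.1 to 42.3 in WT IVIg, which did not overlap, and at 38.3 to 55.4 and 30.9 to 70.8 CPM in the knockout, which did, and its interaction was 0.35 without Dectin-1 knockout IVIg replicates 1 and 2.

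Other receptors of uptake were divided. Of 32 genes of the complement and scavenger list 14 were positive and 18 negative (median -0.03). Besides Cd36, Cd93 gave 1.32 ± 0.48 and the kinase Mertk, which mediates uptake of dying cells, 1.81 ± 0.77. Cd93 stood at 125, 216 and 212 CPM in WT PBS, 124, 118 and 96.1 in WT IVIg, 150, 111 and 95.2 in knockout PBS, and 106, 232 and 205 in knockout IVIg.

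Ranked over all tested genes, up to 15 genes in each direction were taken that had an interaction of at least 1 log2 unit and a mean of at least 2 CPM. Among the 15 with a negative interaction, 6 are non-classical monocyte markers, a list that holds 28 of the 17040 tested genes. That list was chosen with IVIg results of these data known, so the overlap is not independent evidence. The others included the mitochondrial carboxylase subunit Mccc2 (-1.66 ± 0.41), Cyth3, an exchange factor for ARF GTPases (-1.23 ± 0.34), the autophagy protease Atg4a (-1.15 ± 0.34), the adaptor Sh2d1b1 (-1.26 ± 0.38) and the glucocorticoid-activating enzyme Hsd11b1 (-1.50 ± 0.46, and -0.95 without WT IVIg replicate 2). Without that library Cyth3 gave -0.88 and Sh2d1b1 -0.87.

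Mccc2 stood at 6.61, 5.63 and 9.08 CPM in WT PBS, 13.5, 21 and 15.9 in WT IVIg, 10.2, 16.4 and 18.2 in knockout PBS, and 15.2, 8.33 and 10.8 in knockout IVIg. Cyth3 stood at 76.1, 88.8 and 73.9 CPM in WT PBS, 114, 193 and 95.8 in WT IVIg, 123, 129 and 136 in knockout PBS, and 84.9, 92.5 and 101 in knockout IVIg. The groups of Cyth3 were separate in both genotypes, and those of Mccc2 in WT. Rn18s, a ribosomal RNA that selection for polyadenylated RNA should remove, also ranked among the 15, at -2.62 ± 0.80, with 1190 to 14600 CPM over the 12 libraries.

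Among the 15 with a positive interaction, Mmp19, a secreted metalloprotease, had the highest levels of those whose groups were separate in both genotypes. It stood at 20.0, 45.5 and 27.1 CPM in WT PBS, 16.7, 5.94 and 12.7 in WT IVIg, 17.8, 12.7 and 14.8 in knockout PBS, and 23, 31.3 and 19.3 in knockout IVIg. Its interaction was 2.11 ± 0.56. Lmna, which encodes the nuclear lamins A and C, gave 3.40 ± 0.92, with 10.6 to 49.0 CPM in WT PBS, 2.38 to 14.2 in WT IVIg, 5.47 to 8.82 in knockout PBS and 11.4 to 39.6 in knockout IVIg. Its interaction was 2.42 without Dectin-1 knockout IVIg replicates 1 and 2. Thbs1, the matrix protein thrombospondin, gave 2.52 ± 0.78 (1.68 without WT PBS replicate 3) and Tlr5, the receptor for flagellin, 1.07 ± 0.33. Tlr5 stood at 11 to 12.8 CPM in WT PBS and 6.13 to 7.31 in WT IVIg, without overlap. Hdc, which makes histamine, gave 3.46 ± 0.89 at levels of 0.510 to 7.16 CPM. It stood at 3.09, 7.16 and 0.985 CPM in knockout IVIg, and its interaction was 1.52 without replicates 1 and 2 of that group, the 2 with the most neutrophil transcripts.

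**Figure D5:**
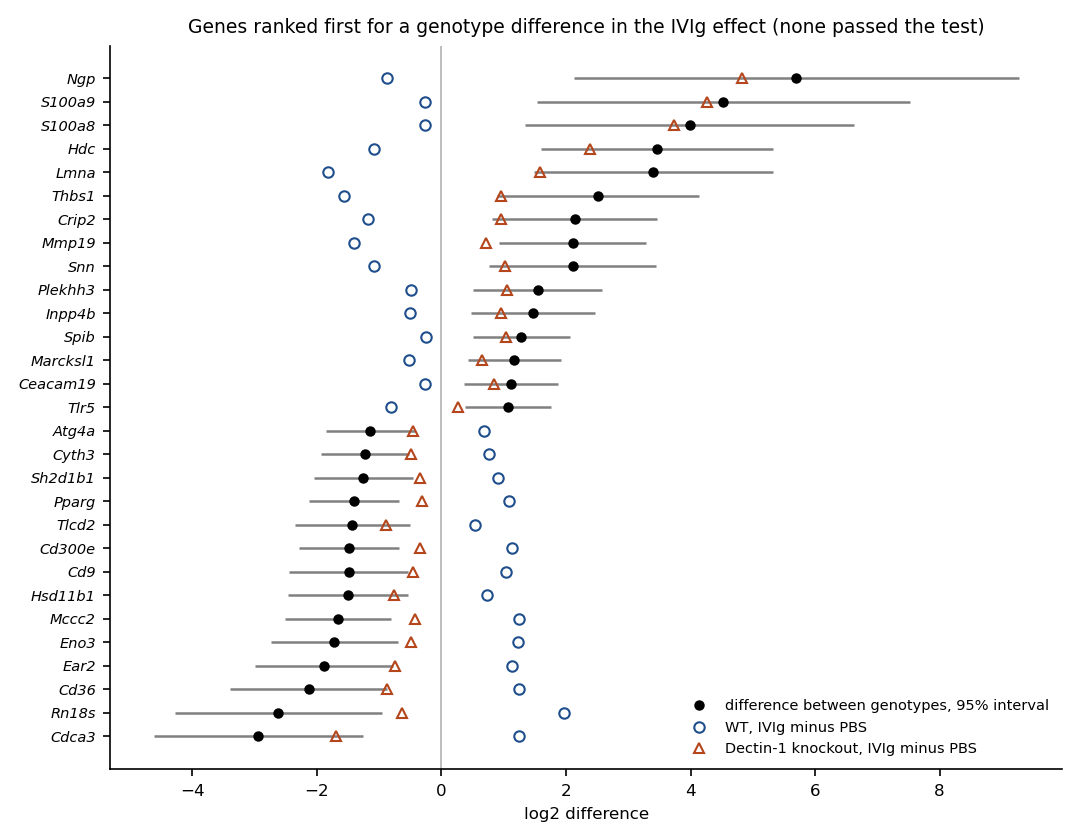
Interaction of 15 genes with a positive and 14 with a negative value among those ranked first (filled points) with 95% intervals that are not adjusted for the 17040 genes tested, beside IVIg minus PBS in WT (open circles) and in the Dectin-1 knockout (open triangles), on the log2 scale. In all 29 genes the WT and knockout points lie on opposite sides of 0. Choosing genes for a small p and a large interaction favours this, and 64.9% of the abundant genes also had opposite signs.

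Across all 17040 genes, 38 (0.223%) had all WT IVIg libraries above all WT PBS libraries and all knockout IVIg libraries under all knockout PBS libraries. The opposite order was seen in 31 genes (0.182%). With 3 libraries per group, shares of this size also arise by chance, so these orders are descriptions only. Egr1, Hdc, Mmp19, Inpp4b and Cd14 are among the 31, and Cyth3, Cd300ld and Cdca3 among the 38. Over the 5049 abundant genes, the IVIg differences of the 2 genotypes had opposite signs in 64.9% of genes and correlated at Spearman's rho -0.42 (Pearson's r -0.42), a description across genes, which share the same libraries. Over the same genes the interaction correlated with gene length at rho 0.42, the WT difference at -0.42 and the knockout difference at 0.27. The part of gene length in these opposite signs was not tested.

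Markers of other cell types also differed in value between the groups. Of 19 tested neutrophil markers 18 had a positive interaction and 8 lay under an unadjusted p of 0.05 in that direction, where 1.80% of all genes did, with a median of 2.74. Their summed level was 739 to 1090 CPM in WT PBS, 491 to 968 in WT IVIg, 786 to 952 in knockout PBS and 1460, 2390 and 796 in knockout IVIg. S100a9, a calcium-binding protein of neutrophils, stood at 171, 411 and 26.5 CPM in knockout IVIg and at 0.819 to 21.5 CPM in the other 9 libraries. Ngp, a granule protein, stood at 110, 288 and 4.80 CPM against 0.328 to 7.09 CPM, and the neutrophil surface marker Ly6g at 4.83, 5.30 and 0 CPM against 0 to 0.553 CPM. These values came from Dectin-1 knockout IVIg replicates 1 and 2: without both, the median was 0.23, and 0 of the markers lay under an unadjusted p of 0.05. With only replicate 2 of them left out 5 did so, and without WT PBS replicate 2, 4. The part of such transcripts in the other interaction values was not tested.

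Of 22 T cell markers 21 were positive with a median of 1.06 and 4 under an unadjusted p of 0.05, where 1.80% of all genes were, at a summed level of 23.3 to 70.3 CPM. With the legacy fit, with DESeq2 and without Dectin-1 knockout IVIg replicate 2, 2 lay under that p, and without replicates 1 and 2 of that group 1 did. Cd3e was at 0 in 1 WT IVIg, 1 knockout PBS and 1 knockout IVIg library and at most at 1.02 CPM. Of 18 B cell markers 13 were positive (median 1.38), with Spib, a transcription factor that plasmacytoid dendritic cells also use, at 1.28 ± 0.37. Spib stood at 11.7 to 19.9 CPM in WT PBS, 11.5 to 15.5 in WT IVIg, 8.85 to 14 in knockout PBS and 21.4 to 24.4 in knockout IVIg, above all other libraries. The B cell median was -0.01 without Dectin-1 knockout IVIg replicates 1 and 2. Of 15 plasma cell markers 10 were negative (median -0.49, and 0.43 without WT IVIg replicate 3), and Jchain stood at 89.4 CPM in WT IVIg replicate 3 and at 2.26 to 20.3 CPM elsewhere. Of 18 NK cell markers 12 were positive (median 0.74, and -0.09 without Dectin-1 knockout IVIg replicates 1 and 2), and 7 of them lie near Clec7a.

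Genes beside Clec7a differed between the genotypes under both treatments. Of 225 tested genes within 10 Mb of Clec7a, 6 were called between the genotypes in PBS, 8 with IVIg, and 6 in both. Each of these counts includes Clec7a itself. Over all 17040 genes 7 were called in PBS (0.0411%) and 9 with IVIg (0.0528%). Emp1, an epithelial membrane protein, stood at 2.48 to 25.8 CPM in the 6 WT libraries and at 338 to 527 CPM in the 6 knockout libraries. Klra17, an Ly49 receptor, stood at 1.78 to 3.18 CPM against 32.4 to 59.0 CPM, and Hebp1, a haem-binding protein, at 1.66 to 4.93 against 64.1 to 110 CPM. Eps8, a regulator of actin, stood at 60.3 to 77.3 CPM in WT and at 3.35 to 9.24 CPM in the knockout. The interaction was 0.34 ± 0.50 for Klra17, 0.24 ± 0.50 for Hebp1 and -0.07 ± 0.43 for Eps8, and 1.65 ± 0.68 for Emp1, whose WT PBS libraries ranged from 2.48 to 25.8 CPM.

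In this window 11 genes (4.89%) had an unadjusted p under 0.05 for the interaction, against 3.75% of all genes, among them Clec7a, Emp1, Cd9, Cd69, Clec2i and Cdca3. The activation marker Cd69 gave -1.05 ± 0.44 and the lectin Clec2i -0.86 ± 0.37, which was -0.41 without WT PBS replicate 3 and WT IVIg replicate 1. Of the 29 tested C-type lectins 18 lie in the window, 21 were negative and the median was -0.48, and -0.14 without WT IVIg replicate 2. For genes of this window, effects of the missing Dectin-1 and of other differences between the chromosomes near it cannot be told apart.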

How the data were processed

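RNA was taken from sorted splenic monocytes and made into libraries with a kit for stranded messenger RNA (labels' protocols). The authors counted read pairs per gene with featureCounts 2.0.2 on Ensembl release 104 genes of GRCm39, per the file headers, and deposited these raw counts. Alignment was with STAR, per the submitters' processing notes. A read counts for each gene it overlaps and no strand option is set, so reads of overlapping or antisense genes cannot be assigned to 1 of them. Of 36 deposited library columns, the 18 that match no sample here were left out. Genes without a symbol held 0.125% to 0.450% of counts and stayed in the totals. Groups come from the genotype and treatment labels, and replicate numbers, in accession order, only name libraries.

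All 18 libraries (6 groups, 12 residual degrees of freedom) were fitted in 1 model with the quasi-likelihood test of edgeR 4.0.16 (R 4.3.3, legacy setting off) after filterByExpr and TMM scaling. Calls are genes whose p, adjusted by Benjamini-Hochberg over all genes tested, is under 0.05. Every p-value given is from this fit unless another tool is named, and each value after ± is a standard error on the log2 scale. It was derived from the test, as the absolute log2 value divided by the square root of the F statistic, and the intervals rest on it. It can break down for genes with groups at 0 counts. Figures were drawn with matplotlib in Python. The test was checked on simulated counts, in which it called somewhat more unchanged genes than its threshold allows.

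The comparison, the 32 gene lists and the rules were chosen with earlier results of these data known. Named are up to 15 genes per direction by unadjusted p (interaction of at least 1, mean of at least 2 CPM, proper symbol, no antigen receptor, immunoglobulin or sex-linked gene), up to 3 members of each list with the smallest p, and Clec7a, Fcgr2b, Fcgr1, Fcgr3, Fcgr4, Fcer1g, Card9, Syk, Nr4a1, Cx3cr1, Ly6c2 and Ccr2. Of the genes ranked by p 1 is not reported here, and the text prints only some of the genes the rule takes. Other list members were named after their values were seen. Alternatives were DESeq2 1.42.0, limma 3.58.1 voom with quality weights, the legacy fit, RLE scaling, other filters, own libraries only, removal of the gene-length trend and libraries left out. The removal of Dectin-1 knockout IVIg replicates 1 and 2 together was chosen after seeing the data.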

Additional observations from a re-analysis of the deposited data

How the results depend on the processing

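No paired analysis was possible because the titles give the libraries no replicate numbers. The interaction had 0 called genes in every alternative but DESeq2, which called 1, Klf5 (adjusted p = 0.0348), whose mean level was at most 0.393 CPM in each group. At an unadjusted p under 0.05 there were 377 interaction genes with DESeq2, 389 with the legacy fit and 2666 with limma voom, against the reported 639, and 446 to 1817 with 1 library left out. By direction, limma voom had 8.55% of its 17040 genes positive and 7.10% negative under that p, so its number lay above the 852 of chance. DESeq2 had 1.09% and 1.12%, and the reported fit 1.80% and 1.95%. The most, 1817, came without WT IVIg replicate 1, and 1092 came without that library and WT PBS replicate 3. In the Dectin-1 knockout, IVIg against PBS gave 2 called genes with DESeq2, 1 without the low-count filter, 0 to 13 with 1 library left out (13 without Dectin-1 knockout IVIg replicate 3) and 0 in the other alternatives. In WT it gave 0 to 1 with 1 library left out, and 0 without WT PBS replicate 1 or any WT IVIg or Dectin-1 knockout PBS library. The call was lost with the legacy fit, the stricter filter, limma voom, the 12 libraries alone, without the most alike WT pair and without Dectin-1 knockout IVIg replicates 1 and 2. Of 122 named genes 109 kept the sign of their interaction in all of the 24 fits that gave a value, and of 32 lists 17 kept the sign of their median. Most of these genes were named for a small p in the same libraries, which favours a stable sign. Fcgr3, Card9, Nr4a1, Cx3cr1, Ly6c2 and Ccr2, all with intervals that include 0, were among the 13 genes whose sign changed. Scaling by RLE factors moved the median of all genes to 0.04. Depth limits genes under 1 CPM, where 3 counts are up to 0.186 CPM.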

Other observations

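Among groups of housekeeping function, ribosomal protein and respiratory chain genes had interactions that leaned 1 way, with few or no members under an unadjusted p of 0.05. Under that p lay 1.80% of all genes in the positive and 1.95% in the negative direction. All 68 ribosomal protein genes had a negative interaction, with a median of -0.40, and 0 lay under that p. Their median was 0.42 for IVIg minus PBS in WT and 0.02 in the Dectin-1 knockout. In WT IVIg their summed level was 33100, 64100 and 67000 CPM, and in knockout IVIg it was 76600, 47100 and 41800 CPM, so that replicate 1 stood apart from the other 2 in each group. Of 59 genes of the respiratory chain 57 were negative, with a median of -0.37, and Ndufb4, a subunit of complex I, was the 1 under that p (-1.47 ± 0.53). Both lists hold short genes. After each library's trend on gene length was removed, the medians were -0.21 and -0.17.

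Genes of glycolysis and HIF-1 targets had a median of -0.14. Besides Eno3, Pdk1, which limits entry of pyruvate into mitochondria, gave -1.16 ± 0.51 (-0.36 without WT IVIg replicate 2), with 68.1 CPM in WT IVIg replicate 2 and 19.6 to 33.3 CPM in the other 11 libraries, and Hif1a, the hypoxia-inducible factor, 0.77 ± 0.35 (0.44 without WT PBS replicate 3 and WT IVIg replicate 1). The median was -0.05 for 37 lysosomal genes, 0.04 for 24 genes of cholesterol synthesis and 0.30 for 24 genes of the unfolded protein response, with 0 members of the 3 lists under that p. Of 40 cell cycle genes 29 were negative (median -0.25, and -0.01 without WT IVIg replicate 2), and Rrm1, a subunit of ribonucleotide reductase, was the 1 under it (-0.91 ± 0.38, and -0.59 without that library). Among the 15 tested dendritic cell markers, 19 red pulp macrophage markers, 10 erythroid markers and 8 platelet markers the medians were 0.34, -0.02, -0.19 and -0.20.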
